A study of Mus musculus with 24 samples.

Results

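*Trem2*, *Gpnmb*, *Spp1*, *Cd9*, *Fabp5*, *Lgals3* and *Fabp4* are genes by which lipid-associated macrophages are usually recognised. They were taken by symbol from the deposited count tables, where these 7 genes were found among 48820 entries in each of 4 tables. Bulk RNA-seq counts of 24 libraries of C57BL/6 mice were available, 3 mice per group. Bmp9/10-HSC-KO mice, named HSC-KO here, carried floxed alleles of *Gdf2* (encoding BMP9) and *Bmp10* that Lrat-Cre deletes in hepatic stellate cells. Their liver macrophages, hepatic ECs and whole livers were each compared with those of BMP9/10 control mice. Smad4FF cKO mice, named *Smad4* cKO here, carried floxed *Smad4* and Vav1-Cre, which acts in hematopoietic cells as a whole and not in macrophages alone, and their liver macrophages were compared with those of Smad4FF mice. The gates were CD45+Ly6C-F4/80+CD64+ for macrophages and CD45-CD31+ for ECs, from mice aged 8 to 10 weeks, whereas the livers were from mice aged 12 weeks.

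Lipid-associated macrophages arise from recruited monocytes in tissues with lipid overload or damage, in the liver mostly during steatohepatitis. TREM2 is their lipid-sensing surface receptor, which signals through the adaptor TYROBP, and GPNMB is a glycoprotein of their lysosomes and surface. Osteopontin (*Spp1*) and galectin-3 (*Lgals3*) are secreted proteins, CD9 is a tetraspanin of the cell surface, and FABP4 and FABP5 carry fatty acids in the cytosol. Outside macrophages, FABP4 and FABP5 are also known from capillary endothelium, osteopontin from bile duct cells and CD9 from many cell types.

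In the GENCODE vM21 annotation of GRCm38, all 7 are protein-coding genes, and their counts are of reads over exons. *Trem2* lies on chromosome 17 (48346401 to 48354147, plus strand), *Cd9* on chromosome 6 (125460266 to 125494791, minus strand) and *Lgals3* on chromosome 14 (47367751 to 47386160, plus strand). *Gpnmb* lies on chromosome 6 (49036546 to 49070929, plus strand) and *Spp1* on chromosome 5 (104435118 to 104441050, plus strand). *Fabp5* (10012548 to 10016607, plus strand) and *Fabp4* (10204088 to 10208576, minus strand) are neighbours on chromosome 3. *Spp1* shares 309 exon bases with *Gm42793* on the same strand and *Cd9* shares 218 with the antisense *Gm26728*, but these partners had at most 15 and 11 counts in any library. The pseudogenes *Cd9-ps* and *Fabp5l2* had 0 counts in every library.

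The upstream sequences of *Trem2*, *Cd9* and *Lgals3* are shown because these members were called in the macrophages of HSC-KO mice. They are the bases before the RefSeq start in GRCm38.p6, 5′ to 3′ on the strand of the gene, without bases that GENCODE gives as exon. The *Trem2* stretch is at chr17:48346151-48346400, the *Cd9* stretch at chr6:125494792-125495010 and the *Lgals3* stretch at chr14:47373610-47373812. Capitals mark matches to the motifs named after the sequences.
Trem2: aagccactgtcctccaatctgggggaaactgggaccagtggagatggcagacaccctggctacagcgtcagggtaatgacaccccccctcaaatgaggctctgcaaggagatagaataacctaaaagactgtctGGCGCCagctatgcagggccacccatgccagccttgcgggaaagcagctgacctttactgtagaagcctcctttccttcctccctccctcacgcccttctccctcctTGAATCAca
Cd9: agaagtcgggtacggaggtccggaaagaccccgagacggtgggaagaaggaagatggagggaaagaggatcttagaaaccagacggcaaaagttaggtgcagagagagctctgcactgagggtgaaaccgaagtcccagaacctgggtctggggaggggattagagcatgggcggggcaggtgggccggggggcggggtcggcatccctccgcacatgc
Lgals3: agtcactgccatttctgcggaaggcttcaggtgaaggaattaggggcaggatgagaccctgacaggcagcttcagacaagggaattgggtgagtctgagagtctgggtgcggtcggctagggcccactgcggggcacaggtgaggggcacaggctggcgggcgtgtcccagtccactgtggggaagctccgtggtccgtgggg
The *Trem2* window held an AP-1 motif (TGANTCA) that began 9 bases before the start and a BMP-type SMAD motif (GGCGCC) that began 116 bases before it. Over 32851 RefSeq promoters, 6.75% held TGANTCA and 9.59% held GGCGCC on either strand in their 250 bases before the start. The *Lgals3* window also held GGCGCC, from 34 to 29 bases before the start, within the bases left out above. The *Cd9* and *Gpnmb* windows held no match to these motifs, to the E-box CACGTG, the M-box TCATGTG, the PPAR-RXR repeat (AGGTCA followed by any base and AGGTCA), the SMAD4 palindrome GTCTAGAC or TATAAA. *Spp1* held TATAAA from 211 to 206 bases before the first of its RefSeq starts, a motif found in 12.4% of the promoters. These are letter matches and not measured binding sites.

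Depth was 60911527 to 110879155 counts per library. In whole liver, *Gdf2* was at 18.4, 9.38 and 22.5 CPM (read counts relative to the library size, scaled with TMM factors) in control mice and at 3.85, 2.12 and 2.63 in HSC-KO mice, and *Bmp10* fell from 1.99 to 3.28 CPM to 0.0938 to 0.262 CPM. *Smad4* was at 40.1, 35.3 and 42.8 CPM in Smad4FF macrophages and at 17.2, 12.6 and 15.4 CPM in *Smad4* cKO macrophages. The sorted macrophages carried their markers, since 8 macrophage genes summed to at least 9943 CPM in every macrophage library and to at most 335 CPM in ECs. The 7 Kupffer cell markers summed to 30214 to 31790 CPM in control macrophages and to 93.5 to 356 CPM in HSC-KO macrophages, and to 25849 to 33020 CPM in Smad4FF macrophages and to 905 to 1027 CPM in *Smad4* cKO macrophages. The 12 endothelial markers in a macrophage library reached 0.205 to 1.86% of the sorted ECs in the HSC-KO experiment and 3.34 to 11.8% in the *Smad4* experiment, where Smad4FF replicate 2 had the lowest share. By the labels, 3 mice gave both a macrophage and an EC library. Control replicate 3 and HSC-KO replicates 2 and 3 of the macrophages had the expression of female mice. So did control replicate 1 and HSC-KO replicates 1 and 3 of the ECs. The other macrophage and EC libraries, with all of the *Smad4* experiment, had the expression of male mice.

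*Lgals3* and *Trem2* were the members with the highest levels in macrophages relative to ECs and whole liver, whereas the other members were low in macrophages or higher elsewhere. *Lgals3* ranged from 352 to 2132 CPM over the 12 macrophage libraries and did not exceed 5.90 CPM in any liver or 2.72 CPM in any EC library. *Trem2* ranged from 50.7 to 410 CPM in macrophages and did not exceed 2.99 CPM in livers. In ECs *Trem2* had 4 counts in 1 control library and 0 counts in the other 5, where 3 counts correspond to 0.0318 to 0.0485 CPM. *Gpnmb* was low in every group. It was at 0.370 to 1.68 CPM (31 to 173 counts) in the macrophage libraries, at 0 to 0.469 CPM in livers and at 0 counts in every EC library.

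*Cd9*, *Fabp5* and *Fabp4* were highest in sorted ECs. *Cd9* was at 263 ± 78.8 CPM in control ECs (SD, n = 3), against 7.53 ± 2.74 CPM in the control macrophages of the same experiment and 17.5 ± 1.76 CPM in control livers. *Fabp5* was at 316 ± 52.5 CPM in control ECs, against 8.23 ± 2.67 CPM in control macrophages and 42.6 ± 36.1 CPM in control livers. *Fabp4* was at 162 ± 19.99 CPM in control ECs, against 1.68 ± 1.47 CPM in control macrophages and 8.45 ± 4.201 CPM in control livers. *Spp1* was highest in control livers (62.9 ± 12.95 CPM), followed by control ECs (25.4 ± 11.2 CPM) and control macrophages (1.13 ± 1.56 CPM). Levels are set across tables that were scaled separately, and they are descriptions without a test.

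In the order of group means, *Trem2* of HSC-KO macrophages stood alone at the top, 3.40-fold above control macrophages, and the ranges of the other macrophage groups overlapped. For *Lgals3*, HSC-KO macrophages (628 ± 239 CPM) lay below the other macrophage groups, whose ranges overlapped with their neighbours. For *Cd9*, the ranges of HSC-KO and control ECs overlapped, as did those of HSC-KO and control livers, while each macrophage group stood apart from its neighbours except that control macrophages overlapped HSC-KO livers. For *Fabp4*, HSC-KO ECs (587 ± 45.1 CPM), control ECs and HSC-KO livers (34.4 ± 5.25 CPM) were separate from the groups below them. For *Fabp5*, both EC groups were separate and all other neighbours overlapped. Per kilobase of exon, which allows a comparison between genes, control macrophages had 740 CPM of *Lgals3*, 18.4 of *Trem2*, 3.68 of *Cd9*, 2.31 of *Fabp5* and less than 1 of *Spp1*, *Fabp4* and *Gpnmb*. HSC-KO macrophages had 338 CPM per kilobase of *Lgals3*, 62.6 of *Trem2* and 19.1 of *Cd9*.

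**Figure D1:**
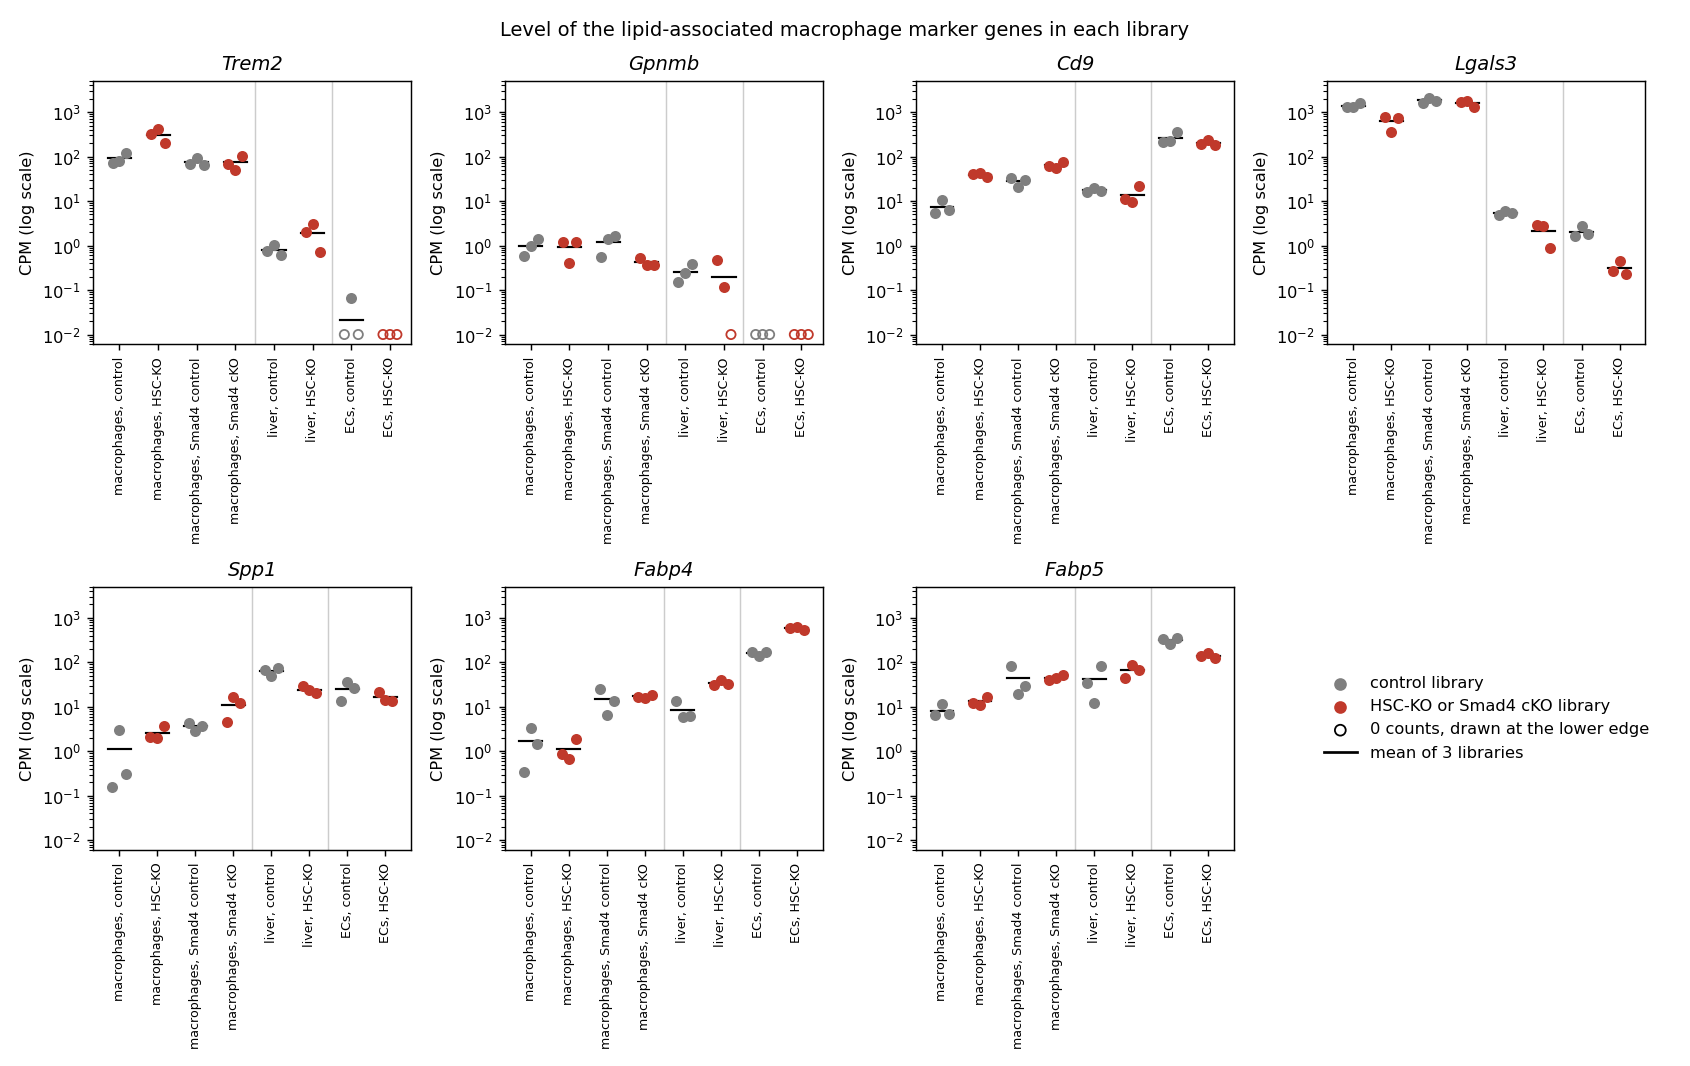
Level of each of the 7 members in CPM on a log axis in all 24 libraries, with points for libraries, bars for the mean of 3 libraries and open points for libraries with 0 counts. *Lgals3* and *Trem2* are highest in macrophages, *Cd9*, *Fabp5* and *Fabp4* in ECs and *Spp1* in control livers.

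In liver macrophages, the levels of the 7 members were set side by side for HSC-KO and control mice. Kupffer cell markers summed to 30214 to 31790 CPM in the control and 93.5 to 356 CPM in the HSC-KO libraries. The paper proposes that embryonic Kupffer cells were lost and that macrophages derived from monocytes took their place. A rise or fall is thus a difference between sorted populations. Whether a member changed within 1 kind of macrophage was not tested. *Trem2* and *Cd9* rose, *Lgals3* fell, and the other 4 members did not pass the test. DEGs had an adjusted p below 0.05 in edgeR's quasi-likelihood test over all genes, with Benjamini-Hochberg adjustment, and an absolute log2 fold change above 1. Of 16337 genes tested, 11.7% were DEGs, 6.32% higher and 5.34% lower. Of the 7 members, all of which were tested, 2 were higher and 1 lower, and their median log2 fold change was 0.70 against 0.04 over all genes. The groups did not overlap for 3 members, and for 40.3% of all genes tested.

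*Trem2* was at 71.8, 80.6 and 120 CPM in control macrophages and at 320, 410 and 199 CPM in HSC-KO macrophages. Every HSC-KO library lay above every control library, and HSC-KO replicate 3 was the nearest to the controls. The mean was 3.40-fold higher (log2 fold change 1.77, SE 0.30, adjusted p = 0.00606 in edgeR). *Cd9* was at 5.53, 10.7 and 6.40 CPM in control macrophages and at 39.9, 42.1 and 35.01 CPM in HSC-KO macrophages. Its HSC-KO libraries lay close together and far above the controls, with a 5.18-fold higher mean (log2 fold change 2.37, SE 0.26, adjusted p = 0.000867 in edgeR). The share of endothelial markers in these libraries would bring 1.10 to 4.89 CPM of *Cd9* in control macrophages and 0.419 to 1.22 CPM in HSC-KO macrophages, taken from the level in sorted ECs of the same genotype, so the measured levels of *Cd9* in HSC-KO macrophages exceeded that share by at least 33.8 CPM.

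*Lgals3* was at 1284, 1274 and 1567 CPM in control macrophages and at 778, 352 and 753 CPM in HSC-KO macrophages. Every HSC-KO library lay below the controls, and HSC-KO replicate 2 was the lowest. The control mean was 2.19-fold higher (log2 fold change -1.13, SE 0.29, adjusted p = 0.0325 in edgeR). The call of *Lgals3* depended on the libraries and covariates. It was lost with sex as a covariate (log2 fold change -1.11, adjusted p = 0.0545 in edgeR). It was also lost without control replicate 1, 2 or 3 (adjusted p = 0.0577, 0.0742 and 0.0946 in edgeR) or HSC-KO replicate 3 (0.052), and without HSC-KO replicate 2 the log2 fold change was -0.85, inside the threshold.

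*Fabp5*, at 6.42, 11.3 and 6.97 CPM in control macrophages and 12.3, 10.9 and 17.0 CPM in HSC-KO macrophages, had a log2 fold change of 0.70 (SE 0.28, adjusted p = 0.121 in edgeR). The endothelial marker share would bring 1.33 to 5.88 CPM of *Fabp5* in control and 0.291 to 0.848 CPM in HSC-KO macrophages. Less that share, *Fabp5* was at 2.84 to 5.42 CPM in control and 10.5 to 16.1 CPM in HSC-KO macrophages, which did not overlap. The part of this share in the change was not tested. *Spp1* was at 0.154, 2.93 and 0.315 CPM in control macrophages and at 2.07, 1.95 and 3.76 CPM in HSC-KO macrophages. Control replicate 2 alone overlapped the HSC-KO libraries, and it also had the highest endothelial marker sum of the control libraries, 268 CPM against 60.3 and 188 CPM. That share would bring 0.472 CPM of *Spp1* in this library, which left 2.46 CPM of the measured level. With all libraries the log2 fold change of *Spp1* was 1.19 (SE 0.98, adjusted p = 0.446 in edgeR), and without control replicate 2 it was 3.48 (SE 0.60, adjusted p = 0.0143). *Gpnmb* was at 0.579 to 1.42 CPM in control macrophages and 0.409 to 1.21 CPM in HSC-KO macrophages (log2 fold change -0.09, 95% interval -1.42 to 1.23). *Fabp4* was at 0.343 to 3.25 CPM in control macrophages and 0.661 to 1.91 CPM in HSC-KO macrophages (log2 fold change -0.56, 95% interval -2.37 to 1.25). The endothelial marker share would bring 1.2 to 3.501 CPM of *Fabp4* in HSC-KO macrophages, more than was measured in each of the 3 libraries.

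Marker sums of other immune cells also differed between these groups. T and NK cell markers, of which 5 of 6 were DEGs higher, summed to 5.19 to 15.9 CPM in control macrophages and to 39.7 to 133 CPM in HSC-KO macrophages. B and plasma cell markers summed to 21.8 to 28.9 CPM and 375 to 544 CPM, but of these 5 genes *Ighm* alone was a DEG, and the median log2 fold change was -0.52. Monocyte markers summed to 631 to 844 CPM and 1538 to 2222 CPM, with *Ly6c2*, *Ccr2* and *Cx3cr1* higher and *Plac8* and *Treml4* lower among the 6 tested. The part of these sums in the changes of *Trem2*, *Cd9* and *Lgals3* was not tested. With the log2 sum of the endothelial markers as a covariate, *Cd9* was still called, while *Trem2* (log2 fold change 1.59, adjusted p = 0.199 in edgeR) and *Lgals3* (-0.95, adjusted p = 0.337) were not, in a fit with 833 DEGs over all genes instead of 1904. The SE of *Trem2* was 0.57 in that fit, against 0.30 without the covariate, and that of *Lgals3* 0.46 against 0.29. The marker sum was 24.7 to 72.1 CPM in HSC-KO and 60.3 to 268 CPM in control libraries, so this covariate went partly with genotype. That share of sorted ECs would bring at most 0.0004 CPM of *Trem2* and 0.038 CPM of *Lgals3* in control macrophages. In HSC-KO macrophages it would bring 0 and at most 0.0019 CPM.

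In macrophages of *Smad4* cKO mice, *Cd9* was the 1 member that passed the test, and it rose. *Trem2* and *Lgals3* did not pass it. Of 17517 genes tested, 5.43% were DEGs, 2.76% higher and 2.67% lower, and the groups did not overlap for 29.4% of the genes and for 3 members. The median log2 fold change of the 7 members was 0.04, the same as over all genes. *Cd9* was at 33.3, 21.1 and 29.5 CPM in Smad4FF macrophages and at 60.2, 56.3 and 77.5 CPM in *Smad4* cKO macrophages. All *Smad4* cKO libraries lay above the controls, with a 2.31-fold higher mean (log2 fold change 1.21, SE 0.20, adjusted p = 0.0123 in edgeR). Without Smad4FF replicate 3 the adjusted p was 0.0605. Monocyte markers summed to 654 to 938 CPM in Smad4FF and 1288 to 1713 CPM in *Smad4* cKO macrophages, where *Cx3cr1* was a DEG higher and *Plac8* lower. The median log2 fold change of the 7 monocyte markers was -0.50, so the higher sum did not stand for most of them. Macrophage markers summed to 18772 to 22560 CPM and 9943 to 13819 CPM, with *Adgre1* and *Lyz2* lower, and cholangiocyte markers to 1.32 to 1.49 CPM and 5.81 to 8.86 CPM, with *Krt7* higher. Kupffer cell markers summed to 25849 to 33020 CPM in Smad4FF and 905 to 1027 CPM in *Smad4* cKO macrophages. The part of these marker differences in the rise of *Cd9* was not tested.

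The levels of *Cd9* in these libraries have to be read beside their endothelial marker share. That share would bring 31.1, 8.80 and 29.3 CPM of *Cd9* in Smad4FF replicates 1, 2 and 3, which left 2.15, 12.3 and 0.221 CPM of the measured level. In *Smad4* cKO replicates 1, 2 and 3 it would bring 30.1, 27.4 and 23.6 CPM, which left 30.1, 28.9 and 53.9 CPM. This subtraction takes the profile of control ECs from the other experiment. With the endothelial marker sum as a covariate, *Cd9* had a log2 fold change of 1.12 (adjusted p = 0.0212 in edgeR).

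*Trem2* was at 68.2, 91.5 and 64.3 CPM in Smad4FF macrophages and at 69.9, 50.7 and 106 CPM in *Smad4* cKO macrophages. The groups overlapped, and the log2 fold change was 0.02 (95% interval -0.62 to 0.65). *Lgals3* was at 1565, 2132 and 1813 CPM in Smad4FF macrophages and at 1668, 1761 and 1313 CPM in *Smad4* cKO macrophages, and these groups overlapped too (log2 fold change -0.22, 95% interval -0.60 to 0.17). *Spp1*, the osteopontin gene, was at 4.31, 2.90 and 3.74 CPM in Smad4FF macrophages and at 4.48, 16.2 and 11.9 CPM in *Smad4* cKO macrophages. *Smad4* cKO replicate 1 was just above the highest control, and the log2 fold change of 1.57 (SE 0.44) had an adjusted p of 0.077 in edgeR, which became 0.0126 without that library. The endothelial marker share would bring 3.01, 0.850 and 2.82 CPM of *Spp1* in Smad4FF replicates 1, 2 and 3. In *Smad4* cKO replicates 1, 2 and 3 it would bring 2.91, 2.65 and 2.28 CPM. Less that share, *Spp1* was at 0.917 to 2.05 CPM in Smad4FF and 1.57 to 13.6 CPM in *Smad4* cKO macrophages, which overlapped. The part of this share in the change was not tested. *Gpnmb* was at 0.546, 1.37 and 1.68 CPM in Smad4FF macrophages and at 0.515, 0.370 and 0.370 CPM in *Smad4* cKO macrophages. Its log2 fold change was -1.52 (SE 0.47, adjusted p = 0.11 in edgeR), and without Smad4FF replicate 1, the lowest control, the adjusted p was 0.0411. DESeq2 called both *Spp1* (adjusted p = 0.00316) and *Gpnmb* (adjusted p = 0.0335) in this comparison.

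The endothelial marker share also bears on *Fabp5* and *Fabp4* in these macrophages, whose measured levels lay on both sides of what it would bring. *Fabp4* was at 24.8, 6.55 and 13.8 CPM in Smad4FF macrophages, beside 19.2, 5.42 and 18.02 CPM from that share. In *Smad4* cKO macrophages it was at 16.9, 16.1 and 18.2 CPM, beside 18.6, 16.9 and 14.5 CPM. *Fabp5* was at 83.1, 19.0 and 29.6 CPM in Smad4FF macrophages, beside 37.4, 10.6 and 35.15 CPM, and at 39.6, 44.3 and 51.2 CPM in *Smad4* cKO macrophages, beside 36.2, 32.95 and 28.4 CPM. Smad4FF replicate 1 was the library in which *Fabp5* stood furthest above that level. Their log2 fold changes were 0.18 for *Fabp4* (95% interval -0.78 to 1.14) and 0.04 for *Fabp5* (95% interval -1.10 to 1.17).

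**Figure D2:**
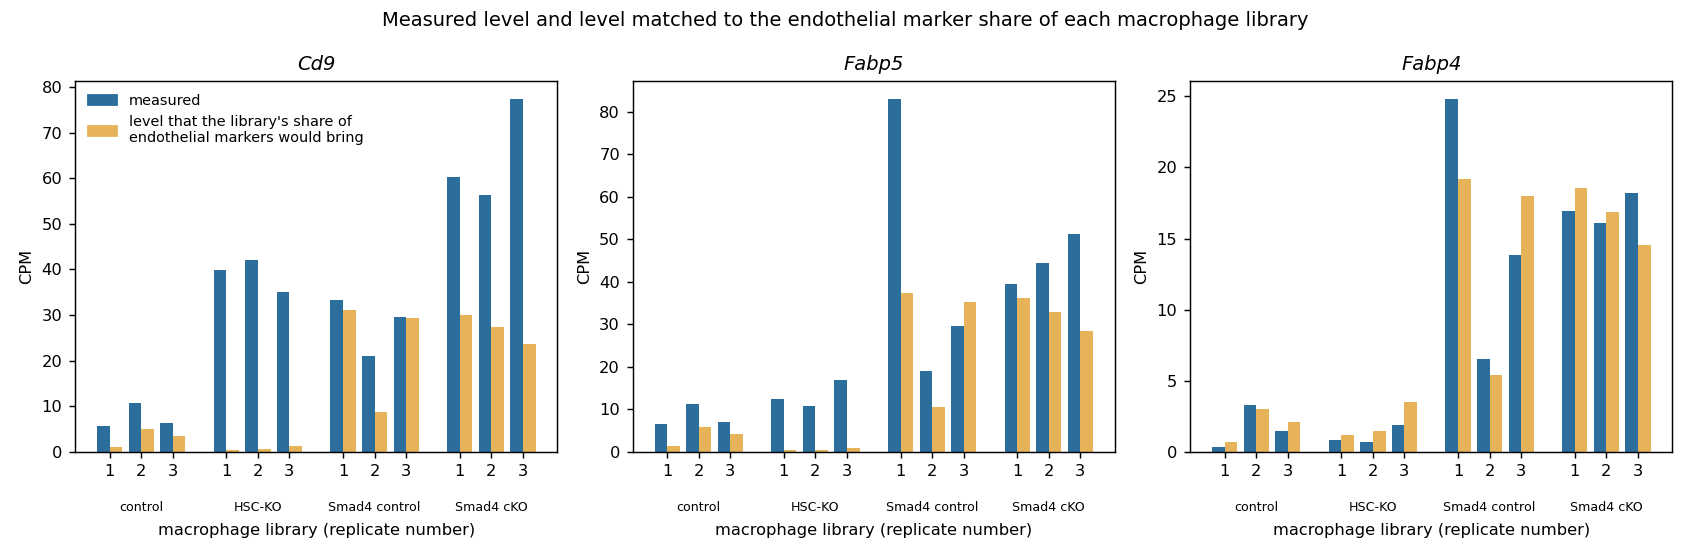
Measured CPM of *Cd9*, *Fabp5* and *Fabp4* in the 12 macrophage libraries (blue) and the CPM that the share of endothelial markers in that library would bring from sorted ECs (yellow), of the same genotype in the HSC-KO experiment and from control ECs in the *Smad4* experiment. *Cd9* of HSC-KO and *Smad4* cKO macrophages stands above that level in every library, whereas *Fabp4* stands below it in every HSC-KO library and on both sides of it in the *Smad4* experiment.

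Whether the members changed differently in the 2 macrophage experiments was tested as an interaction over 12 libraries. Sex was not in this fit. The *Smad4* experiment held libraries of male mice only and the HSC-KO experiment of both sexes, so sex went partly with experiment. Of 18149 genes, 2.61% were called, and 0 of the 7 members were, in edgeR. *Trem2* came nearest, with a log2 fold change that was 1.80 larger in HSC-KO than in *Smad4* cKO macrophages (SE 0.45, 95% interval 0.82 to 2.77, adjusted p = 0.0558 in edgeR). The adjusted p of *Trem2* was 0.0487 with all genes that had a count, 0.0382 with only genes of at least 10 counts in every library, 0.0251 without HSC-KO replicate 3 and 0.0323 without *Smad4* cKO replicate 3. DESeq2 called the difference of *Trem2* (adjusted p = 0.00363) and that of *Cd9* (adjusted p = 0.0287). For *Cd9*, the difference was 1.204 (SE 0.34, adjusted p = 0.094 in edgeR), and it was called without control replicate 2 of the HSC-KO experiment (1.496, adjusted p = 0.0295). The fold of *Cd9* in the *Smad4* experiment is over controls whose endothelial marker share would bring most of the measured *Cd9* in replicates 1 and 3, and the part of this share in the difference was not tested. Less that share, *Cd9* was at 2.95 to 5.77 CPM in control and 33.8 to 41.6 CPM in HSC-KO macrophages, and at 0.221 to 12.3 CPM in Smad4FF and 28.9 to 53.9 CPM in *Smad4* cKO macrophages. For *Lgals3* the difference between the experiments was -0.87 (95% interval -1.66 to -0.07, adjusted p = 0.263). At an unadjusted p below 0.05, 3 members differed in edgeR, *Trem2*, *Cd9* and *Lgals3*. The share of all genes at that looser threshold is not given here, so this count cannot be set against a background.

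In whole liver, *Spp1* fell and *Fabp4* rose in HSC-KO mice, and the other 5 members did not pass the test. Of 17118 genes tested, 2.48% were DEGs, 1.03% higher and 1.45% lower, and the groups did not overlap for 19.7% of the genes and for 3 members. The median log2 fold change of the members was -0.32 against -0.01 over all genes. In tissue, fewer cells of a type and less RNA per cell cannot be told apart. *Spp1* was at 66.8, 48.5 and 73.5 CPM in control livers and at 29.2, 23.5 and 20.4 CPM in HSC-KO livers. Every HSC-KO liver lay below every control liver, with a 2.58-fold higher control mean (log2 fold change -1.37, SE 0.20, adjusted p = 0.014 in edgeR). The 6 cholangiocyte markers summed to 23.3 to 28.3 CPM in control livers and to 23.7 to 26.7 CPM in HSC-KO livers, and their median log2 fold change was -0.59. Of these 6 genes, 0 were DEGs in edgeR or DESeq2 and 1 had an unadjusted p below 0.05. Stellate and mural cell markers summed to 272 to 375 CPM and 516 to 557 CPM, and 0 of these 8 genes were DEGs in edgeR, where 4 had an unadjusted p below 0.05 and DESeq2 called *Col3a1*. The part of bile duct and stellate cells in the fall of *Spp1* was not tested.

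*Fabp4* was at 13.3, 5.97 and 6.08 CPM in control livers and at 30.2, 40.3 and 32.7 CPM in HSC-KO livers, a 4.07-fold higher mean (log2 fold change 2.02, SE 0.33, adjusted p = 0.0211 in edgeR). Control replicate 1 was the highest control and also had the highest adipocyte marker sum, 8.25 CPM against 1.28 and 1.67 CPM. The endothelial markers summed to 346 to 433 CPM in control livers and to 379 to 449 CPM in HSC-KO livers. That share of sorted ECs of the same genotype would bring 3.90 to 4.88 CPM of *Fabp4* in control livers and 18.4 to 21.8 CPM in HSC-KO livers. The call of *Spp1* was lost without control replicate 1 (adjusted p = 0.0573 in edgeR), control replicate 3 (0.063) or HSC-KO replicate 2 (0.0544), and that of *Fabp4* without control replicate 2 (0.0818), control replicate 3 (0.0847), HSC-KO replicate 1 (0.0675) or HSC-KO replicate 2 (0.0637).

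*Lgals3* was at 4.85, 5.90 and 5.28 CPM in control livers and at 2.84, 2.70 and 0.864 CPM in HSC-KO livers. The groups did not overlap, but the log2 fold change of -1.32 (SE 0.42) had an adjusted p of 0.208 in edgeR and of 0.0282 in DESeq2. Macrophage markers were lower as well, with sums of 232 to 357 CPM in control livers and 92.1 to 188 CPM in HSC-KO livers, and HSC-KO replicate 3 had the lowest sum and the lowest *Lgals3*. *Trem2* was at 0.770, 1.06 and 0.610 CPM in control livers and at 2.05, 2.99 and 0.724 CPM in HSC-KO livers, where replicate 3 was within the control range. Its log2 fold change was 1.24 (95% interval 0.01 to 2.48, adjusted p = 0.379 in edgeR), on 52 to 251 counts per library. *Cd9* (9.39 to 21.4 CPM in HSC-KO livers), *Fabp5* (45.3 to 85.0 CPM) and *Gpnmb* (0 to 0.469 CPM) overlapped their controls. HSC-KO replicate 3 was the only liver library with the expression of male mice, so sex and the other properties of that library cannot be told apart.

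In hepatic ECs, *Fabp4* rose while *Fabp5* and *Lgals3* fell in HSC-KO mice. Of 16053 genes tested, 13.7% were DEGs, 7.68% higher and 6.01% lower, and the groups did not overlap for 40.4% of the genes. Of the 5 members tested, 1 was higher and 2 were lower, and *Trem2* and *Gpnmb* did not pass the filter on low counts. *Fabp4* was at 173, 139 and 175 CPM in control ECs and at 592, 629 and 539 CPM in HSC-KO ECs, a 3.62-fold higher mean (log2 fold change 1.86, SE 0.16, adjusted p = 0.000274 in edgeR). *Fabp5* was at 338, 257 and 355 CPM in control ECs and at 138, 161 and 128 CPM in HSC-KO ECs, with a 2.23-fold higher control mean (log2 fold change -1.15, SE 0.17, adjusted p = 0.00344 in edgeR). The neighbouring fatty acid carriers thus moved in opposite directions in the same libraries, and neither pair of groups overlapped. Scaled by library size alone, which moved the median of all genes by 0.29, *Fabp5* had a log2 fold change of -0.87, inside the threshold.

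*Lgals3* in ECs was low, at 1.62, 2.72 and 1.81 CPM in control ECs and at 0.265, 0.447 and 0.232 CPM in HSC-KO ECs (log2 fold change -2.70, SE 0.44, adjusted p = 0.00534 in edgeR). Macrophage markers in the EC libraries fell at the same time, from sums of 229 to 335 CPM to sums of 79.4 to 133 CPM, and Kupffer cell markers from 302 to 329 CPM to 1.73 to 10.1 CPM. Their part in the fall of *Lgals3* was not tested. *Cd9* was at 214, 222 and 354 CPM in control ECs and at 190, 239 and 186 CPM in HSC-KO ECs (log2 fold change -0.36, 95% interval -0.89 to 0.16), and *Spp1* at 13.6 to 35.8 CPM and 13.6 to 21.5 CPM (log2 fold change -0.63, 95% interval -1.45 to 0.19).

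**Figure D3:**
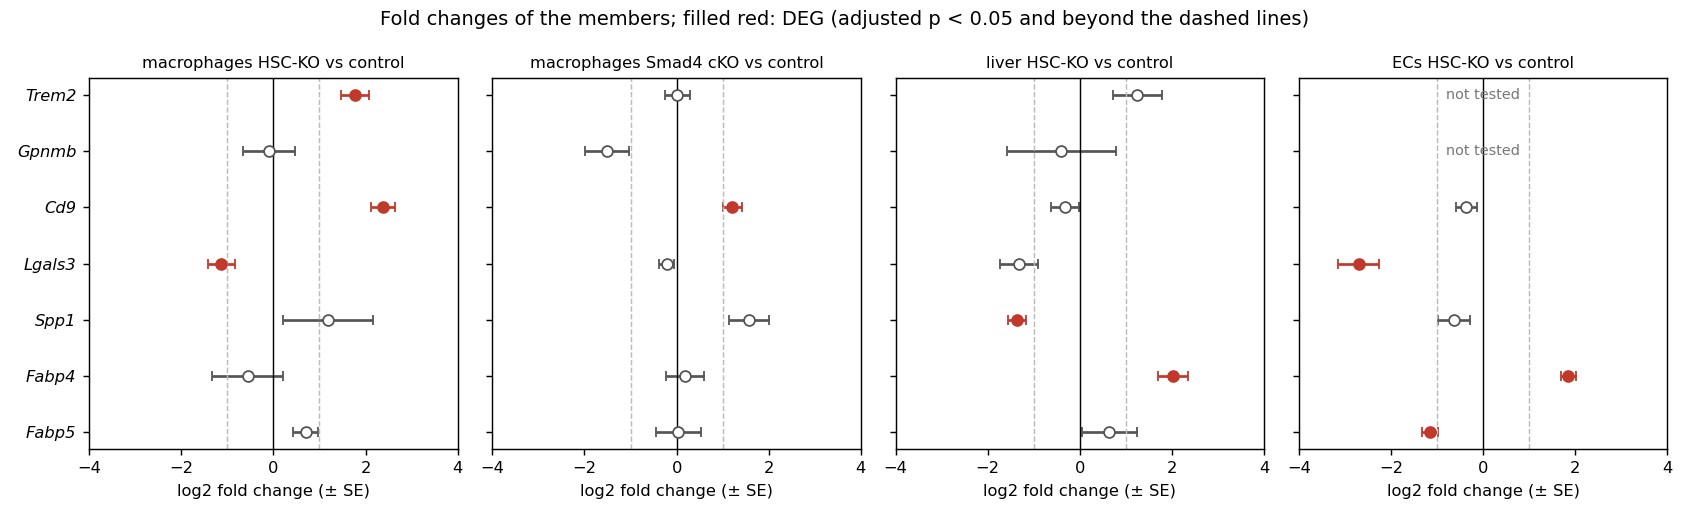
Log2 fold change with its SE for the 7 members in the 4 comparisons, with DEGs filled in red and the dashed lines at the fold threshold. *Cd9* rises in both macrophage comparisons, *Trem2* in HSC-KO macrophages, and *Fabp4* in livers and ECs of HSC-KO mice.

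The difference between the fold changes in HSC-KO macrophages and HSC-KO livers was called for 7.56% of 19057 genes and for 1 member. The livers were from mice aged 12 weeks and the macrophages from mice aged 8 to 10 weeks. Age and tissue thus cannot be told apart in this test. *Cd9* had a log2 fold change of 2.37 in macrophages and of -0.32 in livers, and the difference of 2.65 (SE 0.46) had an adjusted p of 0.0044 in edgeR. *Fabp4* changed by -0.56 in macrophages and by 2.02 in livers, but the difference of -2.64 (SE 0.92) had an adjusted p of 0.106. *Spp1* changed by 1.19 in macrophages and by -1.37 in livers (difference 2.48, SE 1.05, adjusted p = 0.177). For *Trem2* the difference was 0.49 with a 95% interval of -0.88 to 1.85. Without control macrophage replicate 1, *Fabp4* was called (adjusted p = 0.0181), and without control macrophage replicate 2, *Spp1* was called (adjusted p = 0.000625).

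Between macrophages and ECs of HSC-KO mice, the difference was called for 12.3% of 18213 genes and for 3 members. The 3 mice that gave libraries to both were treated in this test as if the libraries were independent. *Cd9* was 2.74 larger in macrophages (SE 0.37, adjusted p = 0.000571 in edgeR) and *Fabp5* 1.86 larger (SE 0.34, adjusted p = 0.00366). *Lgals3* fell in both, and its fold change was 1.58 less negative in macrophages (SE 0.47, adjusted p = 0.0446 in edgeR), but this call was lost in 10 of the 12 fits that left out 1 library, all but those without HSC-KO macrophage replicate 2 and HSC-KO EC replicate 2, with adjusted p-values up to 0.103. For *Fabp4*, the difference was -2.41 (SE 0.83, adjusted p = 0.0745). It was called for *Fabp4* by DESeq2 (adjusted p = 0.0157), with genes of at least 10 counts in every library (0.0451), without control macrophage replicate 1 (0.00681) and without HSC-KO macrophage replicate 3 (0.0431). *Spp1* was called without control macrophage replicate 2 (difference 4.14, adjusted p = 0.00323), against 1.81 (adjusted p = 0.321) with all libraries. No difference is given for *Trem2* and *Gpnmb*, which were at or near 0 counts in ECs.

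Other genes described in lipid-associated macrophages moved in both directions in HSC-KO macrophages. Of 20 such genes, all tested, 6 rose and 5 fell, and their median log2 fold change was -0.32 against 0.04 over all genes. Over all genes, 11.7% were DEGs in HSC-KO macrophages, 5.43% in *Smad4* cKO macrophages, 2.48% in livers and 13.7% in ECs. *Cd63*, a tetraspanin of late endosomes, rose from 4.60 to 6.71 CPM to 486 to 750 CPM (log2 fold change 6.90, SE 0.27, adjusted p = 2.49e-05 in edgeR). *Lgals1* (galectin-1) rose by 3.63 and *Itgax* (the integrin CD11c) by 2.94 on the log2 scale. *Cd5l*, a secreted protein of Kupffer cells that is also among the Kupffer cell markers summed above, fell by 8.21. *Lpl* (lipoprotein lipase) fell too, and was at 935 to 1310 CPM in control and 259 to 469 CPM in HSC-KO macrophages. In *Smad4* cKO macrophages, 2 of the 20 rose (*Cd63*, log2 fold change 3.35, and *Lgals1*, 2.60) and 3 fell (*Cd5l*, -7.13, *Acp5*, -1.43, and *Lpl*, -1.39), with a median of -0.06 over the list. In livers *Cd5l* fell (-7.62) and was the 1 DEG of the list in edgeR, where 7 genes had an unadjusted p below 0.05, while DESeq2 also called *Cd68* and *Clec7a*. *Lpl* in livers was at 15.8 to 17.9 CPM in control mice and at 110.5, 101.7 and 6.66 CPM in HSC-KO mice, where replicate 3 again stood apart (adjusted p = 0.315 in edgeR). In ECs 1 of 17 rose (*Lpl*, 2.59) and 6 fell, among them *Lgals1* (-2.90), which had risen in the macrophages. The part of the lower macrophage and Kupffer cell marker sums of HSC-KO ECs in these falls was not tested.

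No gene of TREM2 signalling was a DEG higher in HSC-KO or *Smad4* cKO macrophages. In each of these comparisons 1 gene of the list was higher with an adjusted p below 0.05 in edgeR, inside the fold threshold. Of 15 adaptors, kinases and TREM family genes, 3 fell in HSC-KO macrophages, all of them other TREM family receptors, and the median log2 fold change was -0.09. These were *Treml2* (log2 fold change -2.60), *Trem3* (-2.22) and *Treml4* (-2.01). The adaptor gene *Tyrobp* was at 1605 to 1823 CPM in control and 1177 to 1469 CPM in HSC-KO macrophages (log2 fold change -0.42, adjusted p = 0.0781 in edgeR). In *Smad4* cKO macrophages *Treml2* fell by 2.27 and no other gene of the list was a DEG, with *Tyrobp* at -0.44 (adjusted p = 0.109). In livers 0 of 12 were DEGs in edgeR, where 7 had an unadjusted p below 0.05 and DESeq2 called 4. In ECs *Plcg2* rose by 1.84 while *Tyrobp*, *Treml4* and *Dok1* fell. Macrophage markers in these EC libraries fell as well, from sums of 229 to 335 CPM to sums of 79.4 to 133 CPM, and their part in these falls was not tested.

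Of 13 genes of other tetraspanins and their partners, 7 were DEGs in HSC-KO macrophages and 6 in *Smad4* cKO macrophages, where 11.7% and 5.43% of all genes were DEGs. In HSC-KO macrophages, where the median was 0.43, 4 of 13 rose, led by *Cd63* and *Tspan33* (4.11 on the log2 scale), and 3 fell, led by *Tspan15* (-5.29). In *Smad4* cKO macrophages, where it was 0.32, 4 of 13 rose, led by *Cd63* and *Tspan33* (2.48), and 2 fell, *Tspan15* (-2.88) and *Cd37* (-2.22). In ECs 3 of 12 fell, led by *Cd82* (-3.50) and *Cd37* (-3.49), and in livers 2 of 13 fell, *Cd37* (-2.09) and *Cd53* (-1.48). Macrophage marker sums were also lower in HSC-KO ECs and livers, and their part in these falls was not tested. Among 9 osteopontin receptor genes, *Cd44* fell in HSC-KO macrophages (-2.58), in *Smad4* cKO macrophages (-1.28) and in livers (-2.56), where the integrin gene *Itga9* fell too (-1.23). In ECs 3 integrin genes fell, led by *Itga8* (-6.66), and *Itgb5* rose by 4.47.

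The DEGs among the other fatty acid binding protein genes were all lower. *Fabp7*, a Kupffer cell gene, was at 150 to 219 CPM in control macrophages and at 0 to 0.186 CPM in HSC-KO macrophages, and at 121 to 162 CPM in Smad4FF macrophages with 0 counts in all *Smad4* cKO libraries. The liver form *Fabp1* fell by 2.21 in HSC-KO macrophages and by 1.86 in ECs. Hepatocyte markers summed to 223 to 791 CPM in control and 296 to 466 CPM in HSC-KO macrophages, with a median log2 fold change of -1.13. In ECs they summed to 49.0 to 97.6 CPM and 37.0 to 53.5 CPM, with a median of -0.80. Their part in the fall of *Fabp1* was not tested. Among 6 other galectin genes tested, *Lgals1* rose and *Lgals2* fell (-2.30) in HSC-KO macrophages, *Lgals1* alone rose in *Smad4* cKO macrophages and fell in ECs, and in livers 0 of 5 were DEGs in edgeR, where 3 had an unadjusted p below 0.05 and DESeq2 called 1. Of 12 regulators named for these genes, *Pparg*, a nuclear receptor known to act on *Fabp4*, rose by 1.73 in HSC-KO macrophages, by 1.501 in *Smad4* cKO macrophages and by 2.57 in ECs, while in livers it was at -1.25 (adjusted p = 0.062 in edgeR). *Nr1h3* (LXRα) fell by 4.29 and by 3.40 in the macrophages and rose by 2.11 in ECs. *Ppara*, *Rxra* (-1.44) and *Tfec* (-1.14) also fell in HSC-KO macrophages, *Tfec* fell in livers (-2.12), and *Flcn* (-1.88), *Fnip1* (-1.40) and *Tfec* (-1.31) fell in ECs. *Mitf*, *Tfeb* and *Tfe3* were not DEGs in the 4 comparisons, although *Tfe3* in ECs (-0.77) had an adjusted p of 0.0109 in edgeR inside the fold threshold.

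**Figure D4:**
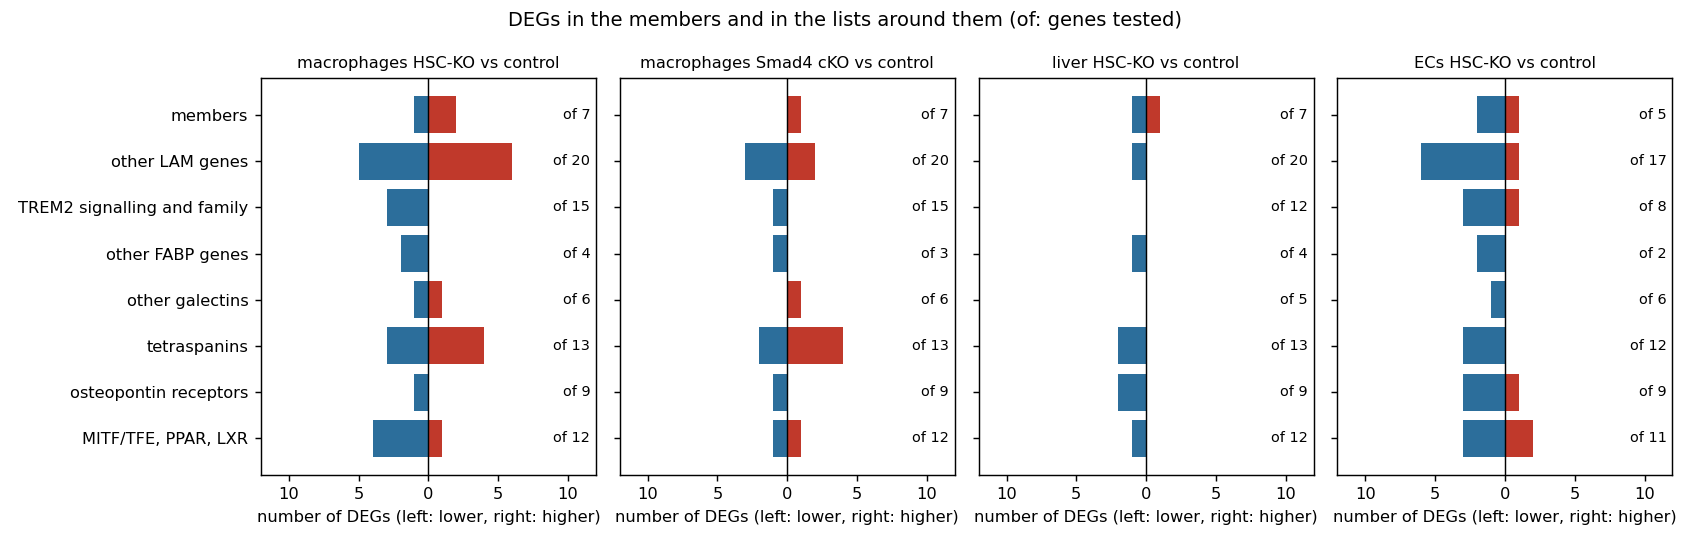
Number of DEGs that were higher (right, red) and lower (left, blue) among the 7 members and the lists around them in the 4 comparisons, with the number of genes tested at the right edge of each panel. In HSC-KO macrophages the other genes of lipid-associated macrophages split into 6 higher and 5 lower.

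Over the 24 libraries, *Lgals3*, *Trem2* and *Gpnmb* followed the macrophage libraries, and *Fabp4*, *Fabp5* and *Cd9* followed the EC libraries. *Spp1*, which was highest in control livers, was in neither set. Among 9491 genes whose mean log2 CPM reached 3, *Lgals3* was most like *AB124611*, *Cd68* and *Pilrb2* (Pearson r of log2 CPM of 0.997 to 0.998) and *Trem2* most like *BE692007*, *Ppfia4* and *Gpr65* (0.99 each). *Fabp4* was most like the endothelial genes *Podxl* and *Emcn* and like *Uaca* (0.981 to 0.987). *Fabp5* was most like *Pcolce*, *Pxdn* and *Atp2b4* (0.936 to 0.942), *Cd9* most like *Igf1r*, *Nav1* and *Cbfa2t3* (0.958 to 0.959) and *Gpnmb* most like *Klrk1*, *Slc38a1* and *Cd22* (0.863 to 0.873). *Trem2* and *Lgals3* had an r of 0.937 with each other, and *Fabp4* and *Fabp5* of 0.883. These values describe libraries of different cell types, which set most of the range.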

How the data were processed

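RNA-seq was performed by the authors on sorted macrophages, sorted ECs and livers. Per the labels and the methods of the study, reads were checked with FastQC, aligned to mm10 (GRCm38) with HISAT2 and counted with featureCounts, and the whole-number counts were deposited without normalization. Versions, annotation release, strand setting and multi-mapping rule are not given in the sources used here, and the labels and the methods name different library kits. Each library was grouped by its label. In R 4.3.3, genes kept by the filterByExpr function (at least 10 counts, at least 15 in total) of edgeR 4.0.16 were scaled with TMM factors and compared with the quasi-likelihood test over the 6 libraries of a comparison, without covariates, and over 12 libraries for differences of fold changes (limma 3.58.1). In the latter, entries that share a symbol were left out. The SE was the log2 fold change divided by the square root of F, and 95% intervals took the t distribution with the degrees of freedom of that test. DESeq2 1.42.0 was an alternative, beside other scalings, filters, left-out libraries, a replicate block and covariates for sex (from *Xist* and Y-linked genes) and endothelial markers. The fits were tested on simulated data. Of 48574 symbols, 95.5% were found in GENCODE vM21. P-values measure the spread between 3 mice per group, and limits at 3 counts cover counting error only. Named genes were the 7 members, the deleted genes, up to 4 DEGs with the largest change of each list and comparison, and the 3 genes most like each member (those of *Spp1* are not reported here), besides *Tyrobp*, *Mitf*, *Tfeb* and *Tfe3*, whose values were seen before they were named, as were those of the regulators beyond the 4 largest. The members and lists were chosen with earlier results of these data known. The comparison with the endothelial marker share was added after seeing the data. Figures were drawn with matplotlib 3.10.9 in Python 3.11.15.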

Additional observations from a re-analysis of the deposited data

Results flagged for a closer look

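The change of *Cd9* in HSC-KO mice differed between macrophages and whole liver and between macrophages and ECs, by a test of the difference itself. Its log2 fold change was 2.65 larger in macrophages than in whole liver and 2.74 larger in macrophages than in ECs. Every HSC-KO macrophage library lay above its controls while the groups overlapped in livers and ECs. The livers were from older mice, so age and tissue cannot be told apart there. *Fabp5* differed between macrophages and ECs by 1.86 on the log2 scale, with measured levels that overlapped in macrophages and with every HSC-KO library below the controls in ECs. Less the endothelial marker share, the macrophage groups did not overlap for *Fabp5*, and the part of this share in the difference was not tested. *Lgals3* fell in both macrophages and ECs, and the sizes of its falls differed by 1.58, a difference that was called in 6 of 18 alternatives and that comes beside lower macrophage and Kupffer cell marker sums in the HSC-KO ECs, whose part in it was not tested. Without 1 library it was lost in 10 of 12 fits. Groups of 3 libraries are too small for a test of single outlying libraries.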

How the results depend on the processing

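Of 718 fold changes and differences of the 7 genes under the alternatives, 667 stayed on their side of the threshold, 22 passed it in addition and 29 no longer passed it. None changed direction while called, but some that were not called did. For example, *Fabp4* in HSC-KO macrophages ran from -1.15 to 2.24 on the log2 scale. Of 56 group levels, 1 moved by more than its SD with scaling by library size alone, *Fabp4* in HSC-KO ECs (648 CPM). With the endothelial markers as a covariate, HSC-KO macrophages had 833 DEGs and 1 gene of the 7 called. DESeq2 called 3 of the 7 in *Smad4* cKO macrophages, 794 DEGs in livers, 1033 genes and 2 of the 7 for the difference between the macrophage experiments, 2248 genes and 2 of the 7 for macrophages against livers, and 5 of the 7 for macrophages against ECs. For the difference between the macrophage experiments, 1 of the 7 was called with all genes of at least 1 count and 1 with genes of at least 10 counts in every library. The cause of these changes was not tested. Leaving out single libraries gave 1399 to 1985 DEGs and 2 to 3 of the 7 in HSC-KO macrophages, 566 to 909 and 0 to 2 in *Smad4* cKO macrophages, 188 to 451 and 0 to 2 in livers, and 1664 to 2496 and 3 in ECs. The fewest DEGs in *Smad4* cKO macrophages were without Smad4FF replicate 3 and in livers without control replicate 2. For the differences it gave 233 to 556 genes and 0 to 1 of the 7 between the macrophage experiments, 1035 to 1611 and 1 to 2 against livers, and 1815 to 2383 and 2 to 3 against ECs. Deviations of same-numbered libraries from their group means had correlations of -0.206 to 0.231. With 3 libraries per group this check cannot exclude a pairing of mice, and the main fits assumed none. A replicate block gave 271 DEGs in livers and 299 genes for the difference between the macrophage experiments, and it changed no call of the 7 genes. Scaling by library size alone moved the median of all genes by 0.16 in *Smad4* cKO macrophages, where 62.4% of DEGs were then higher instead of 50.9%, and by 0.29 in ECs, where 72.5% were higher instead of 56.1%.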
